A study of Xenopus laevis with 32 samples.

Results

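The poly(A) sites of 2360 pairs of homeologous genes of the frog Xenopus laevis were compared, the L copy of each pair against its S copy. A pair was a base name listed with the suffix .L on a chromosome ending in L and with the suffix .S on a chromosome ending in S. Of 2621 base names listed with both suffixes, 2363 met this rule and 258 did not. Among the 2363, 3 were left out because a copy's name was shared by several gene identifiers (lonrf1, sec61g and the placeholder "unnamed"). The 2360 pairs held 16711 of the 41982 listed sites, 8512 in L copies and 8199 in S copies, and their 4720 genes made up 35.4% of the 13344 genes with a listed site.

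The sites were measured by PAS-seq, a method that reads the ends next to the poly(A) tail, in stage VI oocytes, the fully grown oocytes that had not been given progesterone. Both lanes were deposited in 1 column of reads per site, so the sites form 1 sample and no replicate test was possible. RNA levels and polysome shares came from 30 further libraries, covering free messenger ribonucleoprotein, monosomes and polysomes of stage VI oocytes and of oocytes 90 minutes after progesterone, at meiosis I, at interkinesis and at meiosis II. The tables give each of these stages 2 columns, with the suffixes x and y. No gene was altered in any group, and the labels do not tie libraries to individual frogs.

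Xenopus laevis arose by hybridisation of related frog species, and its L and S chromosomes descend from these separate parents. A gene kept on both is a pair of homeologs with closely related sequences. The 3' end of a messenger RNA is made by cleavage of the transcript and addition of a poly(A) tail, and many genes have several such sites. The choice of site sets which regulatory sequence the RNA carries, which matters in oocytes, where stored RNAs are kept silent or activated through elements near their 3' ends.

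The pairs held 266778 of 656192 reads, or 40.7%. Every listed site had at least 2 reads. At least 20 reads were present in each copy of 1212 pairs, at least 50 in each copy of 525 and at least 100 in each copy of 179. Intervals below are Wilson 95% intervals. Those on a share of a copy's reads cover counting error only, since the reads carry no molecular identifiers. Those on a percentage of pairs take the pairs as independent, although all pairs were measured in the same samples. They do not show how such a percentage would vary between samples. L and S sequences can be nearly identical. How reads that fit both copies were treated is not given in the sources used here, so the split of reads between copies is uncertain to that extent. Positions are those of the deposited table, whose genome build is not stated. Genes of the oocyte itself were read in both copies, with 449 and 910 reads in L and S of h1foo, the oocyte linker histone, and 140 and 83 of zp4, an egg coat glycoprotein. Both names of 2138 pairs, or 90.6%, were found in the RefSeq table of assembly Xenopus_laevis_v10.1, which was used for names only.

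The copies of a pair lay on the same chromosome number in every pair except slc12a4. Along 7 of the 9 chromosome pairs the order of the genes was largely shared, with a Spearman correlation between L and S positions of at least 0.926. Among these 7, pairs listed on the same strand ranged from 125 of 210 on chromosome 5 to 270 of 280 on chromosome 9_10. On chromosome 3 the Spearman correlation was -0.348 and 21 of 292 pairs were listed on the same strand, and on chromosome 8 the Spearman correlation was 0.294. In all, 1639 pairs were listed on the same strand and 721 on opposite strands.

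Site use in single pairs shows what the comparison measures. Sites were ranked by reads within each copy and were not matched between copies by sequence. Cyclin A1, encoded by ccna1 and a partner of cyclin-dependent kinases, had 13 sites with 311 reads in L and 14 sites with 391 reads in S. In ccna1.L the most used site, at base 154896749 of chromosome 2L, held 154 reads or 49.5% (44.0% to 55.0%). In ccna1.S it lay at base 134816792 of chromosome 2S and held 184 reads or 47.1% (42.2% to 52.0%). The next most used site lay 2927 bases upstream in L, with 59 reads, and 2890 bases upstream in S, with 83 reads. Both copies of ccna1 thus had the same order of sites at nearly the same spacing, with shares that did not differ beyond counting error.

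Cyclin B1, encoded by ccnb1 and the partner of Cdk1 in the kinase that drives maturation, had nearly equal spacing but unequal shares. Its most used sites were at base 189840291 of chromosome 1L and base 158643003 of chromosome 1S, and the next most used site lay 2749 bases upstream in L and 2759 bases upstream in S. The L copy placed 266 of 354 reads on its most used site, or 75.1% (70.4% to 79.4%). The S copy placed 107 of 237 on its own most used site, or 45.1% (38.9% to 51.5%), and spread the others over more upstream sites. A further S site, at base 158646740 of chromosome 1S, held 25 reads, and another at base 158649453 held 15.

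**Figure D1:**
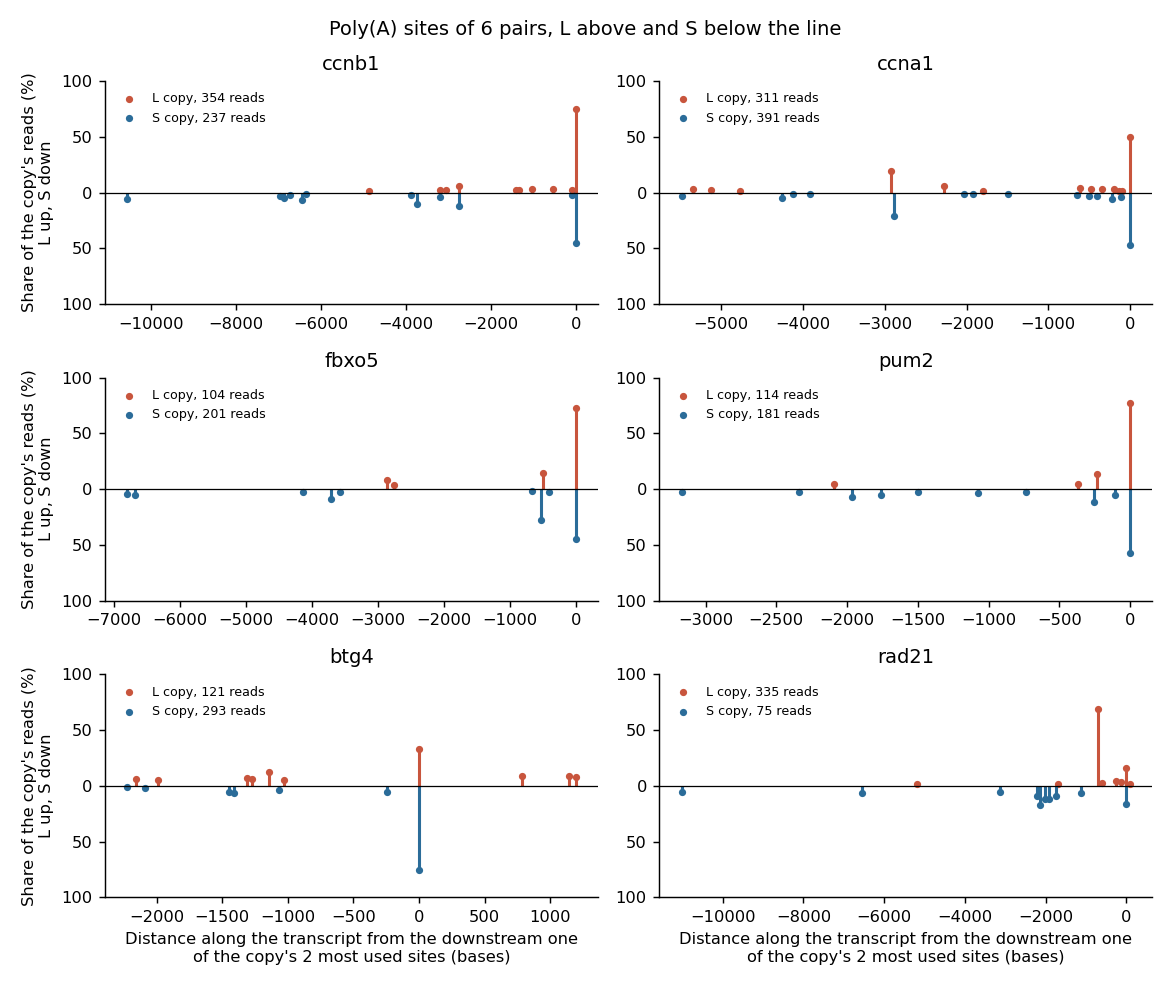
Poly(A) sites of 6 pairs, with the share of the copy's reads (%) on the vertical axis, L upward in red and S downward in blue, and on the horizontal axis the distance in bases along the transcript from the downstream one of the copy's 2 most used sites. In ccna1, ccnb1, fbxo5 and pum2 the next most used sites of L and S stand at nearly the same distance, whereas in rad21 the L copy has 1 site with 69.0% of its reads and the S copy has none above 17.3%.

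The anaphase-promoting complex and its regulators gave further pairs with shared spacing. Cdc20, an activator of the complex, had its most used site at base 77986310 of chromosome 4L, where it placed 241 of 374 reads or 64.4% (59.5% to 69.1%), and at base 62682996 of chromosome 4S with 145 of 287 reads, or 50.5% (44.8% to 56.3%). The next site lay 655 bases upstream in cdc20.L with 30 reads and 614 bases upstream in cdc20.S with 73 reads. The inhibitor Emi1, encoded by fbxo5, placed 73.1% (63.8% to 80.7%) of 104 reads on its L site at base 47858864 of chromosome 5L. It placed 44.8% (38.1% to 51.7%) of 201 reads on its S site at base 39614380 of chromosome 5S, and the spacing to the next site was 490 bases in L and 526 in S. In both genes the L copy was the more concentrated one and the intervals did not overlap. For ube2s, a ubiquitin-conjugating enzyme of the complex, the spacing was 239 and 245 bases and the shares, 39.9% in L and 29.5% in S, had overlapping intervals. That spacing rests on few reads, since the next most used site led by 28 against 25 in L and 25 against 24 in S.

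Among regulators of the poly(A) tail and of stored RNA, pum2, a Pumilio RNA-binding protein, had a spacing of 236 bases in L and 252 in S. Its most used site held 77.2% (68.7% to 83.9%) of 114 reads in L and 56.9% (49.6% to 63.9%) of 181 reads in S. Cnot8, a deadenylase of the CCR4-NOT complex, had its 2 most used sites 491 bases apart in L and 451 in S, with shares of the most used site of 44.3% and 24.2% that differed beyond counting error. Pabpc1, a cytoplasmic poly(A)-binding protein, and parn, a poly(A)-specific ribonuclease, both had their main sites far apart. The distance was 19421 bases in pabpc1.L, 20355 in pabpc1.S, 8911 in parn.L and 10534 in parn.S. In both S copies the next most used site was tied with another nearer to the leading one, and the lower position was taken. The tied sites held 45 reads each in pabpc1.S and 22 each in parn.S, so the S distances rest on this choice. The distances are measured in the genome and can span introns, and the place of the sites relative to coding sequence was not analysed here.

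Other pairs shared neither spacing nor shares. Rad21, the kleisin subunit of cohesin, placed 231 of 335 reads of its L copy, or 69.0% (63.8% to 73.7%), on 1 site at base 138447333 of chromosome 6L. The S copy had 75 reads over 10 sites, and its most used site at base 114228426 of chromosome 6S held 13, or 17.3% (10.4% to 27.4%). The difference of 51.6 points was 22.5 with only sites of at least 10 reads kept, and the sites of rad21.S mostly had fewer. Kif11, the spindle motor Eg5, placed 72.2% (64.9% to 78.5%) of 162 reads on 1 site in L and 25.8% (16.6% to 37.9%) of 62 reads in S. Lsm14b, a component of ribonucleoprotein particles of the oocyte, had 66 of 132 reads on its most used L site and 19 of 88, or 21.6% (14.3% to 31.3%), on its most used S site. The distances were 695 bases in L and 2146 in S for rad21, 80 and 1807 for kif11, and 1876 and 3139 for lsm14b. Few reads decided the next most used S site, with 12 against 9 in rad21, 14 against 13 in kif11 and 11 against 10 in lsm14b. In kif11.L the margin was also small, with 12 against 11. The S distances and the L distance of kif11 rest on these margins.

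The S copy was the more concentrated one in btg4, aurka, cdk2 and ube2c. Btg4, known in the mouse as an adaptor that brings the CCR4-NOT deadenylase to maternal RNA, had its most used S site at base 49911455 of chromosome 7S with 221 of 293 reads, or 75.4%. Its L copy placed 40 of 121 reads on the site at base 77149034 of chromosome 7L, or 33.1% (25.3% to 41.8%), and had 3 further sites with 10 or 11 reads each downstream of it. The kinase gene aurka had 22.9% of 83 reads on its most used L site and 47.9% of 165 on its most used S site. For cdk2, a cyclin-dependent kinase, the shares were 42.9% of 56 reads in L and 70.7% of 58 in S, and for ube2c, the other ubiquitin-conjugating enzyme of the anaphase-promoting complex, 85.1% of 509 in L and 97.5% of 198 in S. None of these 4 pairs had overlapping intervals.

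Over all 1212 pairs with at least 20 reads in each copy, the most used site held a median of 54.4% of the reads in L and 57.0% in S. The difference within a pair had a median of 0 points, the middle 50% of pairs lay between -14.1 and 12.4, and the extremes were -72 and 67.7. Its absolute size had a median of 13.5 points. The share was related between copies, with a Spearman correlation of 0.582 over these pairs, which share 1 pair of lanes and whose shares depend on depth. The chance that a pair of reads of a copy fell on the same site had medians of 37.3% in L and 40.2% in S and a Spearman correlation of 0.605. Its estimate is not biased by depth for the sites counted, but sites with too few reads to be listed are missing from it.

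The intervals of L and S did not overlap in 336 of the 1212 pairs, or 27.7%. The share was higher in L in 154 of them, 12.7% of all these pairs, and higher in S in 182, or 15%. With at least 50 reads in each copy the intervals were apart in 178 of 525 pairs, or 33.9%. A copy with at least 80% of its reads on 1 site faced a copy with no site reaching 50% in 74 of the 1212 pairs, or 6.11%. Among pairs with intervals apart and unequal reads, the copy with the higher share had more reads in 167 of 331, or 50.5% (45.1% to 55.8%).

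**Figure D2:**
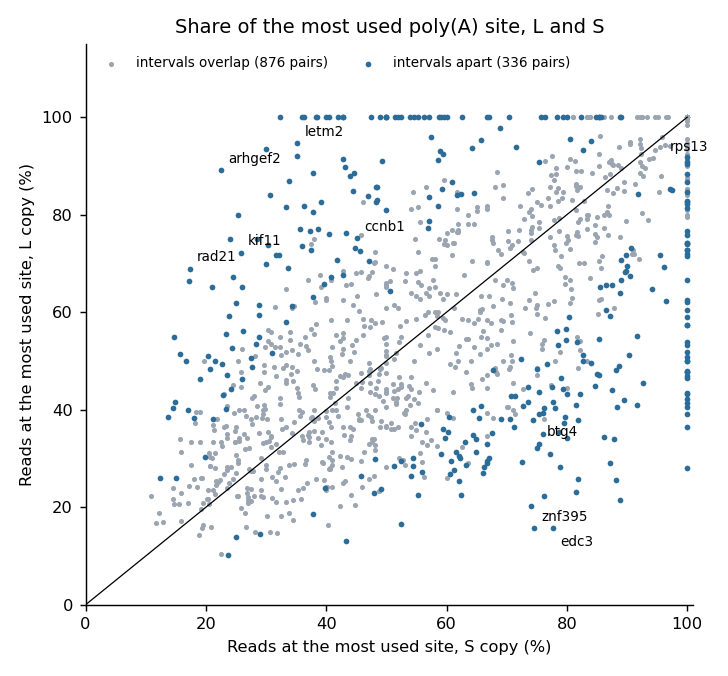
Share of reads at the most used site (%) in the S copy on the horizontal and in the L copy on the vertical axis, 1 point for each of the 1212 pairs with at least 20 reads in each copy, coloured where the Wilson intervals of the copies do not overlap. The 154 pairs above and the 182 below the diagonal with intervals apart include rad21, kif11 and ccnb1 on the L side and btg4 on the S side.

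The pairs with the most unequal shares, among those with at least 50 reads in each copy, reached further than the cell cycle genes. Arhgef2, a guanine nucleotide exchange factor, placed 89.2% of 111 reads on 1 of 4 L sites, whereas its S copy spread 196 reads over 17 sites with 22.4% on the most used. The S sites ran from base 96077910 to base 96314742 of chromosome 8S. The 2 most used lay 93202 bases apart in S and 142 in L, and whether the S sites belong to the same transcript was not tested. For letm2 the shares were 94.6% of 74 reads in L and 35.2% of 108 in S, and for c7orf60 they were 92.0% of 50 and 35.1% of 74. The opposite order was seen for edc3, an enhancer of RNA decapping, with 15.7% of 51 reads in L and 77.6% of 85 in S. Znf395, a zinc finger protein, had 15.8% of 76 reads on its most used L site and 74.6% of 63 on its most used S site. In lmo4.2, a LIM-domain gene, all 64 S reads fell on 1 site against 43.3% of 97 L reads.

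At the other end were pairs whose copies had almost equal shares of the most used site. With at least 100 reads in each copy and the same number of sites, at least 2, the smallest difference was found for rps13, a protein of the small ribosomal subunit, with 96.0% of 125 reads in L and 95.9% of 169 in S. The actin-binding coronin coro1c had 34.6% of 133 reads in L and 36.0% of 111 in S, each over 8 sites. Rbm24, an RNA-binding protein, had 85.1% of 181 reads in L and 86.6% of 157 in S, each over 5 sites. Spacing played no part in this choice and was less alike. The 2 most used sites were 1975 bases apart in L and 1487 in S for rps13, 350 and 144 for coro1c, and 1545 and 192 for rbm24. In coro1c the most used site was the upstream one in L and the downstream one in S.

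The median share of the most used site varied over the gene lists, for which no test was made. Respiratory chain pairs had medians of 94.2% in L and 92.3% in S over 20 pairs with at least 20 reads in each copy, and ribosomal protein pairs had 86.2% and 95.1% over 24. Both copies had at least 80% of their reads on 1 site in 14 of the 20 respiratory chain pairs, or 70%, and in 12 of the 24 ribosomal protein pairs, or 50%, beside 172 of all 1212 pairs, or 14.2%. Polyadenylation pairs (deadenylases, poly(A)-binding proteins and regulators of stored RNA) had medians of 37.0% and 38.7% over 18 pairs, and 0 of these 18 had both copies at 80% or more. Kinesin and tubulin pairs had 39.5% and 37.3% over 10, and maturation pairs had 46.1% and 47.5% over 24. Proteasome pairs, with 58.9% and 67.5% over 14, lay between these groups. The medians of L and S were farther apart in solute carrier pairs, at 50.6% and 67.9% over 16, and in splicing pairs, at 48.9% and 59.4% over 15. Within pairs, the median difference of L minus S was -12.3 points in solute carrier pairs but 1.90 points in splicing pairs.

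A single site in each copy was listed for 6 of the 29 ribosomal protein pairs and 12 of the 35 respiratory chain pairs, beside 305 of all 2360 pairs, or 12.9%. For rps27a, a ribosomal protein fused to ubiquitin, all 213 L reads and all 134 S reads fell on 1 site per copy, and for rpl34, a protein of the large subunit, all 106 and all 234 did. Rplp0, a protein of the ribosomal stalk, had 99.2% of 528 reads on its most used L site and all 287 S reads on 1 site. In the respiratory chain the same was true of atp5j2, with 49 and 95 reads, and of cox5a, with 31 and 53. Exceptions were rps16, with 50.9% of 57 reads in L and all 40 in S on the most used site, and sdhd, a subunit of succinate dehydrogenase, with all 41 reads on 1 site in L and 35.9% of 39 in S.

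**Figure D3:**
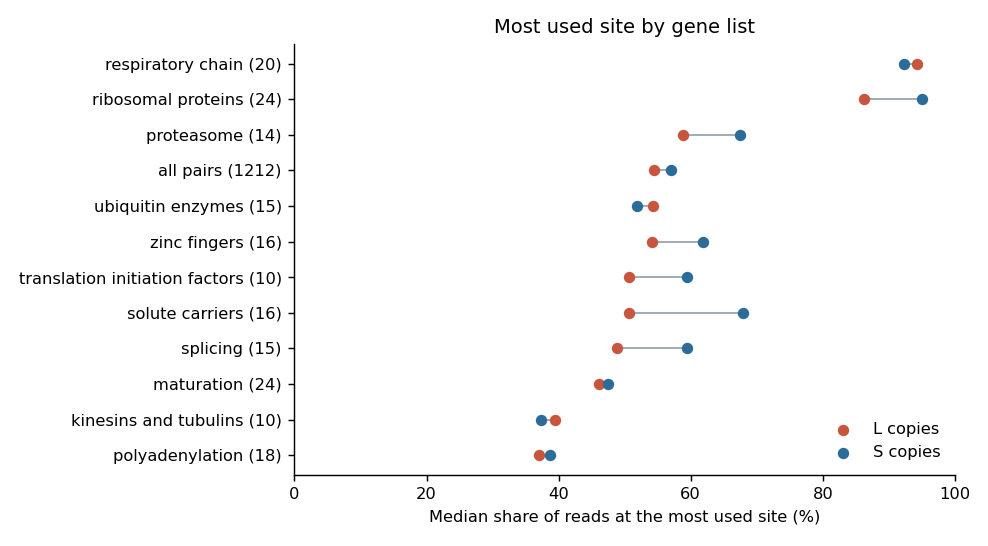
Median share of the most used site (%) in L copies and S copies for each gene list and for all pairs, over pairs with at least 20 reads in each copy. The L medians range over the lists from 37.0% for polyadenylation pairs to 94.2% for respiratory chain pairs, and the S medians from 37.3% for kinesin and tubulin pairs to 95.1% for ribosomal protein pairs.

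The intervals were apart in 7 of 24 ribosomal protein pairs, 4 of 20 respiratory chain pairs, 10 of 24 maturation pairs and 7 of 18 polyadenylation pairs, beside 27.7% of all pairs. At 50 reads or more in each copy they were apart in 12 of 25 maturation and polyadenylation pairs, or 48%, 8 with the higher share in L and 4 in S, beside 33.9% of all pairs at that depth. Among 15 splicing pairs 7 were apart, 1 with the higher share in L and 6 in S. The maternal histone and egg coat genes are few: h2afz, a histone variant, had 95.2% of 460 reads on its most used L site and 65.7% of 283 in S, and zp4 had 88.6% of 140 and 44.6% of 83. These lists were chosen with results of these data known and carry no test.

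The distance between the 2 most used sites was available for 1029 pairs with at least 20 reads and several sites in each copy. Its median was 1212 bases in L and 1264 in S, and it was longer in L in 501 of 1026 unequal pairs, or 48.8% (45.8% to 51.9%). The copies of a pair had distances within 1.25-fold of each other in 230 pairs, or 22.4%, within 50 bases in 104 and within 10 bases in 36. The next class of equal width on the log scale, from 1.25-fold to 1.56-fold, held 123 pairs, and the one after it held 95. L and S distances had similar medians, so the class nearest to equal could be the largest for unrelated copies too. How much larger it would be was not calculated. Unrelated copies were not compared, so these counts do not show by themselves that spacing was kept. Distances at least 4-fold apart were found in 368 pairs, or 35.8%. Over all 1029 pairs the Spearman correlation of the distances was 0.388.

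The order of the 2 sites was compared as well. The most used site was the downstream one in 68.6% of L copies and 67.6% of S copies. It was downstream in both copies of 516 pairs, or 50.1%, and upstream in both copies of 143, or 13.9%, so that the order was shared in 659 pairs, or 64.0% (61.1% to 66.9%). Since the downstream site led in most L and most S copies, unrelated copies would often share the order too. The percentage to be expected from this was not calculated. The order was shared in 157 of the 230 pairs with distances within 1.25-fold, or 68.3% (62.0% to 73.9%), and in 502 of the other 799, or 62.8% (59.4% to 66.1%). These intervals overlapped. In pabpc1 the upstream site led in L with 27 reads against 25, and the downstream one led in S with 80 against 45. That switch rests on a tie, since a site downstream of the leading one in pabpc1.S also held 45 reads.

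Among the 25 maturation and polyadenylation pairs with at least 50 reads in each copy, 11 had distances within 1.25-fold, or 44%, beside 113 of all 489 pairs at that depth with several sites in both copies, or 23.1%. The order was shared in 19 of the 25, or 76%, beside 67.9% of the 489. The 11 pairs include pabpc1 and parn, whose S distances rest on ties for the next most used site. Small margins also decided that site in ube2s, with 28 against 25 reads in L and 25 against 24 in S. In btg4.S the margin was 18 against 17, and in ccnb1.S 29 against 25. The 11 pairs were not free of differences in share, since 6 of them, ccnb1, cdc20, fbxo5, pum2, cnot8 and btg4, had intervals apart.

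**Figure D4:**
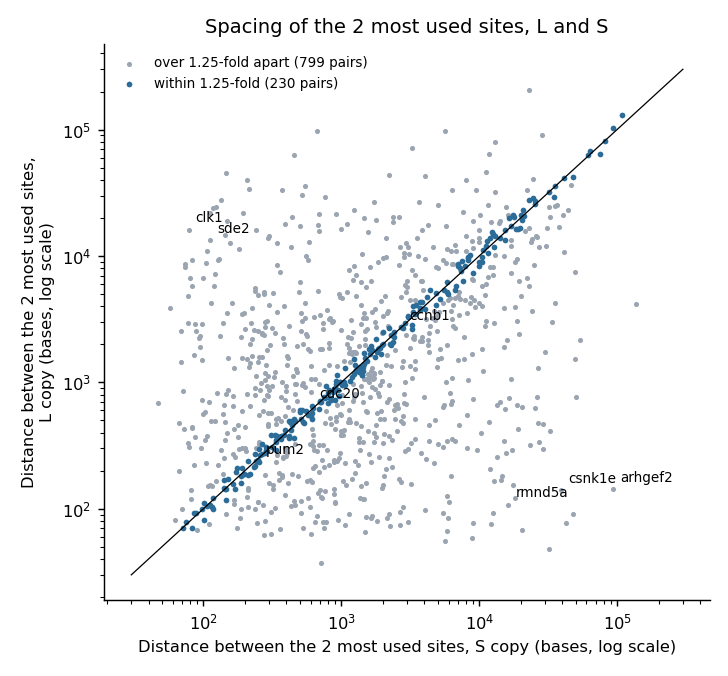
Distance in bases between the 2 most used sites, S copy on the horizontal and L copy on the vertical axis, both logarithmic, for the 1029 pairs with at least 20 reads and several sites in each copy. The 230 pairs with distances within 1.25-fold lie along the diagonal, and named pairs such as clk1 and csnk1e lie far from it.

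The pairs farthest from equal distances were sought among those with at least 50 reads in each copy and at least 10 at the next most used site, passing over names that are only identifiers. In clk1, a kinase of splicing factors, the 2 most used sites were 16152 bases apart in L and 78 in S. In sde2 they were 13269 and 112 bases apart, and in atp6v0c, a subunit of the vacuolar proton pump, 10939 and 106. The reverse was seen in csnk1e, a casein kinase, with 140 bases in L and 39071 in S, in ahctf1, the nucleoporin ELYS, with 76 and 12273, and in rmnd5a, a ubiquitin ligase subunit, with 108 and 16258. In several of these pairs few reads decided which site was the next most used. In clk1.L it held 30 reads against 28 at the site after it, in csnk1e.S 12 against 11, and in ahctf1.L 14 against 10. In atp6v0c.L the margin was wider, with 34 reads against 10.

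In reads the copies were nearly balanced as a whole and unequal one by one. L sites held 137434 reads and S sites 129344, an L share of 51.5%. The median was 35 reads in an L copy and 31 in an S copy. The L copy had more reads in 1248 of 2309 unequal pairs, or 54.0% (52.0% to 56.1%), and the median log2 ratio of L to S was 0.15. By chromosome, the share of pairs with more reads in L ran from 51.4% on chromosome 3 to 59.1% on chromosome 7. Reads of L and S were related with a Spearman correlation of 0.507 over all 2360 pairs.

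The reads differed by at least 2-fold in 1135 pairs, or 48.1%, with L higher in 618 (26.2%) and S higher in 517 (21.9%). A difference of at least 8-fold was found in 125 pairs, or 5.30%. Of the 592 pairs whose shallower copy had fewer than 10 reads, 77.2% were at least 2-fold apart, and of the 179 pairs with at least 100 reads in each copy 16.2%. The reads of the shallower copy set both the group and the ratio, so part of this fall is built in. Dependence on depth was not tested. Zinc finger pairs had more reads in S in 21 and in L in 11 of 33, so that L led in 34.4% of the unequal pairs, beside 54.0% of all unequal pairs. Respiratory chain pairs were at least 2-fold higher in L in 13 and in S in 2 of 35, and maturation pairs in 9 and 2 of 29, beside 26.2% and 21.9% of all pairs.

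The most unequal pairs with at least 10 reads in each copy and 100 together were tuba3c, an alpha-tubulin, with 178 reads in L and 11 in S, csrnp1, with 286 and 21, and hccs, which attaches haem to cytochrome c, with 160 and 12. In the other direction were rnd1, a small GTPase, with 12 reads in L and 194 in S, ppdpf with 16 and 194, and numa1, a spindle pole protein, with 15 and 155. In maturation genes, bub3 of the spindle checkpoint had 209 reads in L and 62 in S, and the spindle assembly factor tpx2 had 199 and 59. The deadenylase cnot6l had 203 and 81.

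**Figure D5:**
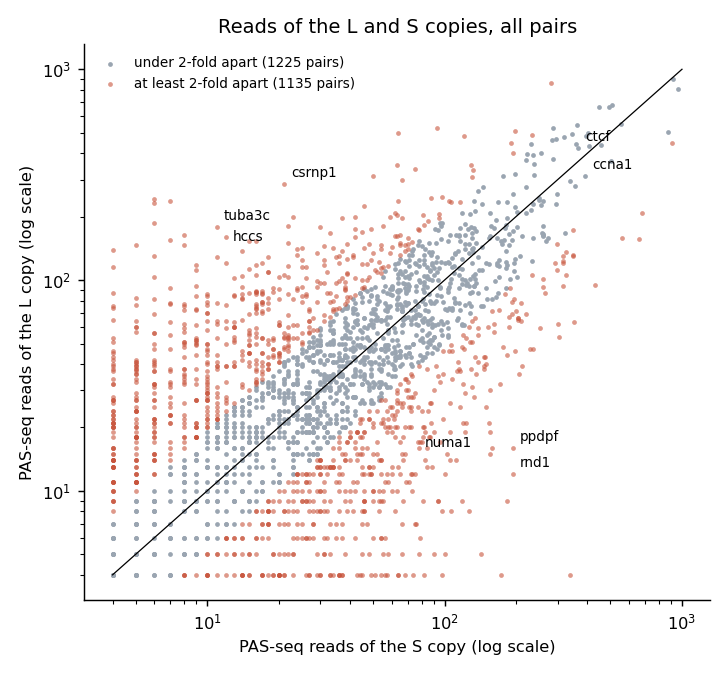
PAS-seq reads per gene in the S copy on the horizontal and the L copy on the vertical axis, both logarithmic, 1 point for each of the 2360 pairs. The cloud is centred near the diagonal, with 618 pairs at least 2-fold higher in L and 517 at least 2-fold higher in S.

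L copies had a mean of 3.61 sites and S copies 3.47. The number was equal in 604 pairs, or 25.6%, and of the 1756 unequal pairs 939, or 53.5% (51.1% to 55.8%), had more sites in L. There was 1 site in each copy of 305 pairs, or 12.9%, and several in both copies of 1354, or 57.4%. The copy with more reads also had more sites in 1422 of the 1728 pairs unequal in both, or 82.3%. The deeper copy was therefore also thinned to the reads of the shallower one by exact calculation. At matched reads the mean difference was 0.0673 sites, 1503 pairs differed by at least 0.5 sites, and 792 of these, or 52.7% (50.2% to 55.2%), had more in L.

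Single pairs differed by many sites at matched reads, and in each pair named here the deeper copy had more. The shallower copy kept its listed sites, whereas the thinned copy counted a site from 2 reads. In bdp1, 317 S reads were thinned to the 94 of L, whose least used listed site held 5. At matched reads fam46b, a poly(A) polymerase family gene, had 25.5 sites in L and 10 in S. Ctcf, the insulator protein, had 23.9 in L and 14.0 in S, and znf395 had 9.98 and 3. More sites in S were found for arhgef2, with 4 in L and 15.7 in S over the wide span given above. The same held for cgnl1, a tight junction protein, with 6 and 14.7, and for bdp1, a subunit of the RNA polymerase III factor TFIIIB, with 6 and 14.3. With only sites of at least 10 reads kept, the difference between L and S fell from 15.5 to 6 sites in fam46b, from 9.94 to 3 in ctcf and from 6.98 to 1 in znf395. It went from -11.7 to -4 sites in arhgef2 and from -8.25 to -6.70 in bdp1, and in cgnl1 no difference was left.

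Copies of pairs were more deeply read than genes listed with 1 suffix only. The 3202 genes with .L only had a median of 24 reads and the 1567 with .S only had 21, beside 35 and 31 in pairs. Several sites were listed for 74.0% of L copies and 70.4% of S copies of pairs, and for 62.6% and 60.6% of the genes with .L only and .S only. With at least 20 reads these shares were 89.6% and 89.1% in pairs and 86.9% and 87.0% in the others. Genes with 1 suffix can include pairs whose other copy is named differently or has no listed site.

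RNA levels gave a second view of which copy was higher, in measurements that had not been used to choose the pairs. Both copies had a level at stage VI in 1780 pairs. The log2 ratio of L to S was taken within each column. Its mean at stage VI was tested against no difference with limma, two-sided, with Benjamini-Hochberg adjustment over the 1780 pairs. All 5 stages were fitted, and the others served only to estimate the spread. At an adjusted p under 0.05 the level differed in 889 pairs, or 49.9%, with L higher in 448 (25.2%) and S higher in 441 (24.8%). Leaving out stage VI column y gave 535 pairs and leaving out column x gave 623, and with a block for the column set it was 1228. The unit of the level is not stated, nor is whether it is per length, so a difference in length of the copies cannot be told apart from a difference in amount. No statement says that the 2 columns came from separate frogs, so their spread may be technical. The block takes the difference between the column sets out of the spread, so the larger count with it is not a firmer one.

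The copy with the higher level also had more PAS reads in 592 of 875 called pairs with unequal reads, or 67.7% (64.5% to 70.7%), and in 460 of 871 pairs that were not called, or 52.8% (49.5% to 56.1%). Where reads were at least 2-fold higher in L, the level was higher in L in 181 of 442 pairs and higher in S in 51. Where they were at least 2-fold higher in S, the level was higher in S in 163 of 369 pairs and higher in L in 42. Across the 1780 pairs the Spearman correlation between the log2 ratio of reads and that of levels was 0.341 in column x and 0.305 in column y, and the Spearman correlation between the level ratios of both columns was 0.841. The ratio of levels was thus closer between columns than between assays.

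Beside 25.2% of all pairs higher in L and 24.8% higher in S, the level was higher in L in 12 and in S in 7 of 28 ribosomal protein pairs, in 7 and 6 of 24 maturation pairs and in 9 and 6 of 26 polyadenylation pairs. Respiratory chain pairs had 6 and 6 of 25, beside reads at least 2-fold higher in L in 13 and in S in 2 of 35. Zinc finger pairs had 6 and 7 of 24.

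Fbxo5 had levels of 146 in L and 556 in S in column x, and 82.4 and 262 in column y. The log2 ratio was -1.80 (SE 0.18, limma adjusted p 0.000258). Its S copy also had more PAS reads, 201 against 104. Pabpc1 was higher in S in the same way, with levels of 474 in L and 1000 in S in column x and 222 and 450 in y, a log2 ratio of -1.05 (SE 0.16, limma adjusted p 0.0018), and 317 PAS reads in S against 121 in L. Ube2c was higher in L, with 554 and 221 in column x and 86.4 and 23.7 in column y, a log2 ratio of 1.60 (limma adjusted p 0.0024) and 509 PAS reads against 198. Levels and reads favoured the same copy in these 3 pairs.

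Cpeb1, which binds cytoplasmic polyadenylation elements, stood apart, with levels of 623 in L and 55.6 in S in column x and 149 and 11.1 in column y. Its log2 ratio was 3.62 (SE 0.18, limma adjusted p 1.72e-05), whereas PAS reads were 114 in L and 95 in S. Ctcf had levels of 12177 and 1092 in column x, 3780 and 503 in column y, a log2 ratio of 3.19 (limma adjusted p 0.000788), and PAS reads of 421 and 364. Coro1c was alike in PAS reads, 133 and 111, with a log2 ratio of levels of 3.16 (limma adjusted p 0.0019). In these 3 pairs the level differed by more than 8-fold, as the mean log2 ratio of both columns, and the reads by less than 2-fold. Without stage VI column x the log2 ratio of ctcf was 2.91, and without column y that of coro1c was 2.68, both under 8-fold. Csrnp1 had 286 reads in L and 21 in S. Its levels were 118 and 117 in column x and 29.6 and 38.5 in column y (log2 ratio -0.19, limma adjusted p 0.454). Bub3 (log2 ratio 0.61, limma adjusted p 0.278) and numa1 (-2.72, limma adjusted p 0.0547) did not pass either. Tpx2 (3.39, limma adjusted p 0.0046), cnot6l (1.45, limma adjusted p 0.00103) and ppdpf (-2.51, limma adjusted p 0.0051) passed on the side with more reads.

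Ccna1 went in opposite directions, with 311 reads in L and 391 in S but levels of 6230 and 2357 in column x and 904 and 209 in column y. Its log2 ratio of levels was 1.76 (limma adjusted p 0.012), a call that was lost without the stage VI column y. Fam46b was higher in S by level, with a log2 ratio of -1.53 (limma adjusted p 0.0029), and had 478 reads in L and 318 in S. Btg4 had more reads in S, 293 against 121. Its levels were 3485 in L and 2539 in S in column x, and 1009 and 441 in column y. The log2 ratio of 0.83 did not pass (limma adjusted p 0.106). It passed with a block for the column set (limma adjusted p 0.00186), which takes the difference between x and y out of the spread. The btg4 ratio was 0.46 without stage VI column y and 1.19 without column x. For ccnb1 the log2 ratio of -0.27 did not pass either (limma adjusted p 0.549), with 924 and 765 in column x and 72.6 and 128 in column y, where the columns lay on opposite sides.

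Polysome shares, the authors' fraction of a gene's RNA found on polysomes, were available for both copies of 673 pairs. At stage VI the median was 0.339 in L and 0.336 in S, as the mean of both columns. The difference between copies on the log2 odds scale was tested with limma in the same way, two-sided. None of the 673 pairs (0%) passed an adjusted p of 0.05, and the smallest adjusted p was 0.119. At an unadjusted p under 0.05 there were 66, or 9.81%, and the absolute difference had a median of 0.23 log2 odds. Between columns x and y the difference had a Spearman correlation of 0.441 over the 673 pairs. With 2 columns per stage small differences can be missed, so these counts do not show that the copies were alike.

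Pairs whose site shares differed were compared with the others on this measure. The absolute difference had a median of 0.20 log2 odds in the 134 pairs with intervals apart and 0.24 in the 338 pairs with overlapping intervals. An unadjusted p under 0.05 was found in 11 of the 134, or 8.21% (4.65% to 14.1%), and in 34 of the 338, or 10.1% (7.29% to 13.7%). Rad21, with its unlike sites, had polysome shares of 0.320 in L and 0.313 in S in column x and 0.312 and 0.370 in column y. Btg4 had 0.261 and 0.280 in column x and 0.265 and 0.298 in column y. Fbxo5 had 0.173 and 0.204 in column x and 0.238 and 0.235 in column y.

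The larger differences among named pairs were in znf395 and csrnp1. Znf395 had 0.520 in L and 0.323 in S in column x and 0.410 and 0.302 in column y, a difference of 0.93 log2 odds (SE 0.32, limma adjusted p 0.365). Csrnp1 had 0.492 and 0.284 in column x and 0.371 and 0.328 in column y, a difference of 0.78 (limma adjusted p 0.365). Both were higher in L in both columns and neither passed.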

How the data were processed

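Per the file headers, the authors deposited a read count for every site, with the lanes together in 1 column. They also deposited a polysome share per gene as a fraction, and RNA levels with no unit named, treated as a score. Bowtie, Bowtie2, TopHat2 and Cufflinks are named in the submitters' processing notes, with no role given. The genome build, the site caller and its filters are not given in the sources used here.

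Pairs were formed by name and chromosome. Reads, number of sites, share of the most used site and distance to the next most used site (PAS base, ties to the lower position) were computed in Python 3.11.15 with pandas 2.3.3. Shares needed at least 20 reads in each copy. Sites at matched reads are the exact expected number of sites with at least 2 reads.

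Levels and shares were tested with limma 3.58.1 in R 4.3.3, on log2(L) minus log2(S), with no pseudocount, or on the difference in log2 odds, with 1 term per stage, all 10 columns and a trend in the prior variance. The stage VI term was the one tested. Residual degrees of freedom were 5, and prior degrees of freedom 2.04 for levels and 4.78 for shares. The 178 level names listed repeatedly were left out. Both steps were tested on simulated data. The simulation for limma drew independent values with a common spread, so it does not cover columns that deviate together. Columns of the same set deviated together across stages for levels (correlations 0.438 to 0.611) and less so for shares (0.0333 to 0.255), which is why the column set was tried as a block.

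The members and gene lists were chosen with earlier results of these data known. Pairs named come from the maturation and polyadenylation pairs with at least 50 reads in each copy and from those at the ends of each measure. These were 3 per end, with at least 50 reads in each copy, or 10 in each and 100 together for reads. The 3 pairs most alike in share were added. Names that are only identifiers were passed over, and some values are not reported here. Further examples were chosen after their values were seen: rps27a, rpl34, rplp0, atp5j2, cox5a, rps16, sdhd, h2afz, h1foo and zp4.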

Additional observations from a re-analysis of the deposited data

How the results depend on the processing

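Settings changed 1 at a time were a minimum of 10 reads per site, merging of sites within 50 nt, pairs on 1 chromosome number, minima of 10 or 50 reads per copy, and those of the limma fits. The median difference in share, 0, was 0.753 points with at least 50 reads in each copy. Intervals were apart in 38.6% of pairs when only sites with at least 10 reads were kept and in 33.9% with at least 50 reads in each copy. The percentage with a longer distance in L, 48.8%, crossed to 51.9% with sites of at least 10 reads and also when the next most used site had at least 10 reads. Pairs differing in level numbered 514 of 890 above the median level, and 535 to 623 with 1 stage VI column left out. With the column set as a replicate block, which takes the difference between x and y out of the spread, they numbered 1228, with all 889 among them. Pairs differing in polysome share numbered 0 in every setting, 0 to 0 with a column left out, and 14 to 92 at an unadjusted p under 0.05. The level calls of c7orf60, cdk2, eif4enif1, parn and rmnd5a were lost whichever stage VI column was left out. Those of aurka, ccna1, ppdpf and rbm24 were lost without column y only, and that of tpx2 without column x only. No named difference that had been called changed its sign. Among those not called, 9 level ratios and 11 differences in polysome share changed sign under a setting, and with sites of at least 10 reads 3 differences in share did (fbxo43 from 9.63 to -10.5 points, cpeb1 from 4.21 to -1.25, pabpc1 from -2.92 to 1.18). The lanes share 1 column and could not be left out in turn. The cause of these changes was not tested. Depth limits the shares, since 20 reads leave wide intervals, and sites near the minimum of 2 reads decide the number of sites.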
